A study of Mus musculus with 8 samples.

Results

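The comparison described here sets effector T cells (Teff) of IRE1a knockout mice against Teff of wild-type mice. Its differences rest on 4 of the 8 RNA sequencing libraries of the series, 2 from wild-type (WT) and 2 from knockout (KO) Teff. These libraries are called WT 1, WT 2, KO 1 and KO 2 by the replicate numbers of the labels. All mice were of strain C57BL/6 and had experimental autoimmune encephalomyelitis (EAE), a model of multiple sclerosis induced with MOG, a myelin protein. T cells were sorted from the spleen on day 7. WT Teff and KO Teff were both sorted as CD4+CD25-YFP- cells, and the KO genotype was labelled IRE1a-/-. The remaining 4 libraries came from regulatory T cells (Treg, CD4+CD25hiYFP+) of the same genotypes and day. They enter the test of the Teff difference through the spread of each gene, which is estimated from all 8 libraries. The labels give no age and no strain origin of the knockout allele. They name no promoter that drives YFP or a recombinase and do not say which cells carry the deletion. They hold no statement that replicate libraries are from separate mice. P-values therefore measure the spread between libraries, which may be technical. A gene was taken into the comparison when its value was at least 10 in at least 2 of the 4 Teff libraries, which 12585 of 18438 genes met. Nearest to this limit, the second highest of the 4 values was 10.004 for Gm31166 inside it and 9.9939 for Shd outside it. Values are the deposited normalized read numbers, not corrected for gene length, so levels of different genes are not compared. A difference is the mean log2(value + 1) of KO minus that of WT, a scale that shrinks the change of genes with low values, and a gene is called when its Benjamini-Hochberg adjusted p from limma, over all 12585 genes, lay under 0.05.

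IRE1a, encoded by Ern1, sits in the membrane of the endoplasmic reticulum (ER) and senses unfolded protein. When active it splices Xbp1 mRNA, which yields a transcription factor for ER chaperones and for the machinery of protein export and degradation, and it can cut other mRNAs, a process called regulated IRE1-dependent decay. In CD4+ T cells the unfolded protein response accompanies activation, when resting cells start to divide, to make secreted and surface proteins and to take on helper functions.

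The 4 Teff libraries summed to between 18167745 (WT 1) and 18751258 (WT 2), with values above 0 for 16324 to 16487 genes. Replicates correlated at r = 0.977 in WT and 0.978 in KO on the log2 scale across tested genes. The labelled cell type was checked with its markers. Cd4, the coreceptor that defines helper T cells, had 25059 and 25016 in WT and 23514 and 22541 in KO, and Cd3e, a chain of the T cell receptor complex, 7619.5 and 7069 in WT and 7252 and 7417 in KO. No member of the CD4 T cell marker list was called by limma, of 9 tested (2 at an unadjusted p under 0.05). Foxp3, the lineage factor of Treg, was listed at 0 in WT 1 and WT 2 and had 2.06 and 8.29 in KO 1 and KO 2, against 89.1 and 92.2 in WT Treg and 111 and 117 in KO Treg. It did not pass the filter on low values and was not tested. Il2ra, which encodes CD25, had 690.3 and 588 in WT and 537 and 436 in KO Teff (log2 difference -0.40, adjusted p = 0.0868).

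Markers of other spleen cells were present in the sorts and lay lower in KO for most lists. The summed value of 8 dendritic cell genes was 3340.4 and 5431 in WT and 2443 and 1591 in KO. For 13 macrophage and monocyte genes it was 4242 and 3011 in WT and 2271 and 1928 in KO. WT 1 stood highest for macrophages (C1qa, a complement gene, 215 and 49.4 in WT and 58.8 and 48.4 in KO) and WT 2 for dendritic cells (Itgax, which encodes CD11c, 481 and 1043 in WT against 453 and 222 in KO). Plasma cell genes summed to 1458 and 1427 in WT and 721 and 590.4 in KO, and NK cell genes to 936 and 1103 in WT and 656 and 479 in KO. Both KO libraries lay below both WT libraries in these 4 lists, as in 12 of all 14, the CD4 T cell list itself included (106615 and 108105 in WT, 102117 and 102255 in KO). Among all tested genes 50.5% had WT and KO libraries that did not overlap, in either direction. The summed B cell value was 6219.8 and 6033 in WT against 6858 and 7481 in KO, a sum made up mostly of Ighm (5459 and 5137 in WT, 6408 and 7016 in KO), while 9 of 11 tested B cell genes lay below 0. In single genes, the dendritic cell list had 3 of 8 tested members called lower, the NK cell list 2 of 5, the plasma cell list 2 of 6 and the macrophage list 1 of 13 (Ccr2, which T cells also express). No marker of these 4 lists was at 0 in all 4 libraries. The part of these cells in the differences described below was not tested.

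**Figure D1:**
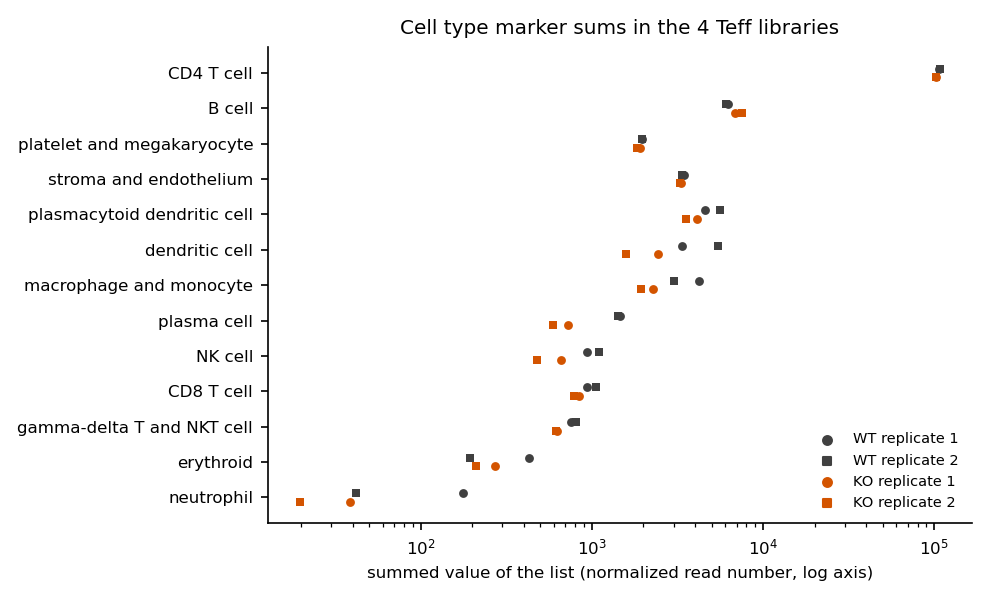
Summed values of the marker lists (normalized read number, log axis) in each Teff library; circles are replicate 1 and squares replicate 2, dark for WT and orange for KO. The sums for dendritic cells, macrophages, plasma cells and NK cells are lower in both KO libraries than in both WT libraries. The same holds for 12 of all 14 sums, among them the Treg sum, which is not drawn. WT and KO libraries did not overlap, in either direction, in 50.5% of all tested genes.

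KO Teff differed from WT Teff in 958 of 12585 tested genes (7.61%), of which 700 were lower (5.56%) and 258 higher in KO (2.05%). A change of over 2-fold was seen in 301 of the lower genes (2.39% of tested genes) and 78 of the higher genes (0.62%). The median difference of all tested genes was -0.01. The median was -0.89 among the lower genes and 0.54 among the higher genes. Counts of called list members below are to be read beside the shares of all tested genes, 5.56% lower and 2.05% higher. The ranges of the WT and KO libraries did not overlap in any called gene, which was also true of 50.5% of all tested genes. Lack of overlap, where stated below, therefore adds nothing to a call. Cells of a type that are fewer and cells that hold less RNA each cannot be told apart in such bulk libraries.

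The number of calls rested on single libraries. With WT 1, WT 2, KO 1 or KO 2 left out it was 507, 363, 645 or 384. Of the 958 calls, 232 held whichever of the 8 libraries was left out and 149 under each of 18 alternative settings, and no called gene changed sign under any of them. A call given below with its values or difference held whichever library was left out and under every scaling and filter tried unless its loss is stated. Changes of the test itself, such as a fit of the 4 Teff libraries alone with 210 calls, are given once in the closing section. In that fit the mitosis list had 7 lower calls, the follicular helper list 10, the effector transcription factors 7, and the early receptor-induced and interferon lists 1 each.

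**Figure D2:**
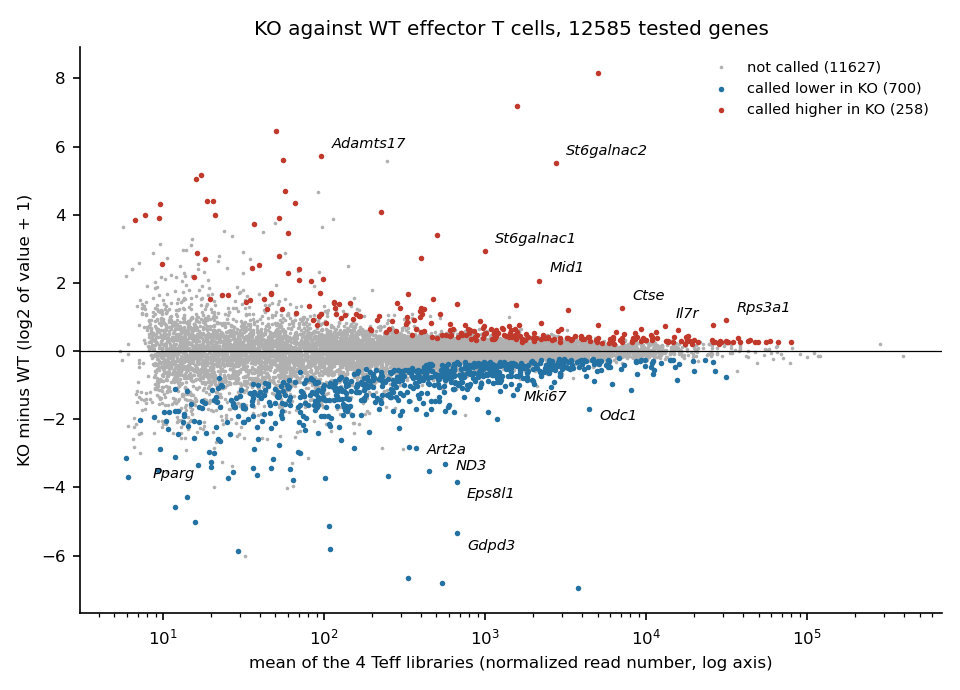
Difference between KO and WT Teff (log2 of value + 1, vertical) against the mean of the 4 Teff libraries (normalized read number, log axis) for 12585 tested genes. Blue and red points are the 700 lower and 258 higher called genes, grey points were not called; St6galnac2 lies at 5.52 and Gdpd3 at -5.35.

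The targeted gene and the genes of its own pathway were examined first. Ern1 (chromosome 11, 106394650 to 106487852 of GRCm38) had 559 and 616 in the WT libraries and 458 and 453 in the KO libraries. Both KO values lay below both WT values, and the difference did not pass the test (log2 -0.37, SE 0.10, adjusted p = 0.0868). The value covers the whole gene, and the removed part is not named in the labels, so it is no check of the genotype. Xbp1 had 1359 and 1286 in WT and 1657 and 1381 in KO, both KO values above both WT values, with a log2 difference of 0.19 (adjusted p = 0.305). A gene-level value does not show Xbp1 splicing.

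Genes of ER protein folding showed no limma call in either direction among 25 tested chaperones and folding enzymes, with 4 at an unadjusted p under 0.05. Their median was -0.03, close to that of all genes, with 11 members above 0 and 14 below. Hspa5 encodes BiP, the main ER chaperone, and had 13977 and 14618 in WT and 13212 and 11052 in KO (log2 -0.24, SE 0.08, adjusted p = 0.128). Pdia3, a disulfide isomerase, was the member with the smallest p, at 8081 and 8373 in WT and 7403 and 6807 in KO (log2 -0.21, adjusted p = 0.0613). In ERAD and ER export 1 of 32 members was called, Vcp, an ATPase that extracts misfolded proteins (log2 -0.24), and in ER translocation and N-glycosylation 1 of 32. That gene was Dad1, a subunit of the oligosaccharyltransferase, with 2727 and 2583 in WT and 1766 and 1753 in KO (log2 -0.59, SE 0.06, adjusted p = 0.00262). Medians of these lists were -0.04 and -0.05. Called shares were 0% for the chaperones and 3.125% for either of these lists, beside 7.61% of all tested genes. Vcp (any library, adjusted p up to 0.168) lost its call when 1 of these libraries was left out. Vcp (TMM factors or no filter on low values, adjusted p up to 0.0564) also lost its call under another scaling or filter.

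Some chaperone promoters carry the sequence through which XBP1 and ATF6 are known to act, the ER stress response element, so the stretches are shown for the chaperone genes that hold it. The element holds a CCAAT box and was searched as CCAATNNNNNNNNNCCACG on both strands from 250 bases before to 50 bases after the annotated start in RefSeq promoters of GRCm38.p6. It was found in 8 of the 23 chaperone genes with a promoter entry (34.8%), against 18 of 9696 tested genes (0.186%) and 0 of 516 genes called lower. Capitals mark the fixed letters of the element on either strand, and each sequence runs 5′ to 3′ on the strand of its gene. The stretches are Hspa5 (chr2:34772010-34772058, plus strand), Pdia6 (chr12:17266476-17266524, plus strand), Dnajc3 (chr14:118937812-118937860, plus strand), Ero1b (chr13:12565667-12565715, plus strand), Canx (chr11:50325785-50325833, minus strand), Hsp90b1 (chr10:86705623-86705671, minus strand), Calr (chr8:84847060-84847108, minus strand) and Creld2 (chr15:88819505-88819553, plus strand).
Hspa5: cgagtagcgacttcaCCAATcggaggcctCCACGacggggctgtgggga
Pdia6: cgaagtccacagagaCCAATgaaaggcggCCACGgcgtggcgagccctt
Dnajc3: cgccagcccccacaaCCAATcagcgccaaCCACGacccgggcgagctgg
Ero1b: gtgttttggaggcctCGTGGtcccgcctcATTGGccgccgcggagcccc
Canx: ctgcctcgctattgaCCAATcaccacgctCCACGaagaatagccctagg
Hsp90b1: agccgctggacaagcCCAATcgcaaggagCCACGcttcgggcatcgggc
Calr: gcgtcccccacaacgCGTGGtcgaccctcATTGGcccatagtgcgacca
Creld2: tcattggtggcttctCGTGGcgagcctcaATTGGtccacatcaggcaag
None of these genes was called. Calr, an ER lectin chaperone, had 11218 and 10795 in WT and 11311 and 10909.8 in KO, and Creld2, an ER stress-induced gene, 396 and 409 in WT against 405 and 407 in KO so that the groups overlapped for both genes. Pdia6, a disulfide isomerase, differed most among them, with 276 and 269.8 in WT and 206 and 178 in KO (log2 -0.51, adjusted p = 0.192).

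Among 17 tested sensors and regulators of the unfolded protein response 3 fell. For this count and those that follow, 5.56% of all tested genes were called lower and 2.05% higher. Atf6 encodes the ER membrane precursor of a transcription factor that works beside IRE1a. It had 838 and 1042 in WT and 556 and 549 in KO, a clear gap between groups (log2 -0.76, SE 0.12, adjusted p = 0.0119). The others were Creb3l2, a related membrane-bound factor (log2 -0.75), and Dab2ip, a scaffold of the kinase branch of IRE1 signalling (log2 -1.35). Eif2ak3, which encodes the sensor PERK, had 978 and 1085 in WT and 756 and 799 in KO and was not called (log2 -0.41, adjusted p = 0.102). Of 22 PERK and ATF4 targets 1 fell. It was Asns, the asparagine synthetase, with 120.4 and 187 in WT and 20.9 and 36.6 in KO (log2 -2.40, SE 0.35, adjusted p = 0.0107). Of 15 mRNAs reported elsewhere as substrates of IRE1-dependent decay 0 rose and 1 fell, Itgb2, an integrin chain (log2 -0.28), with a list median of -0.12. Atf6 (KO 2, adjusted p up to 0.0641), Creb3l2 (any library, adjusted p up to 0.196), Dab2ip (WT 1, WT 2, KO 1 or any Treg library, adjusted p up to 0.129), Asns (WT 2, adjusted p up to 0.0615) and Itgb2 (any library, adjusted p up to 0.176) lost their calls when 1 of these libraries was left out. Creb3l2 and Dab2ip (quantile normalization, adjusted p up to 0.0782) and Itgb2 (TMM factors, adjusted p up to 0.0513) also lost their calls under another scaling or filter.

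Some genes of cell division fell in KO Teff. Of 48 tested genes of mitosis, kinetochore and spindle 17 were called, all lower, and 44 lay below 0, with a median of -0.84 and a range from -2.98 to 0.29. Mki67, a nuclear protein of cycling cells, had 2109 and 2149.9 in WT and 939 and 809 in KO. Cenpf, a kinetochore protein, had 139 and 106 in WT and 25.9 and 26.02 in KO (log2 -2.18, SE 0.30, adjusted p = 0.008800). Tpx2, which builds spindle microtubules, had 239 and 177 in WT and 74.3 and 60.97 in KO (log2 -1.60, SE 0.19, adjusted p = 0.00546). In all these the KO libraries lay close together and far under both WT libraries. Summed over the list, values were 20223 and 17684 in WT and 11725 and 12135 in KO. Called members numbered 8, 8, 11 and 9 with WT 1, WT 2, KO 1 and KO 2 left out in turn.

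Cyclins and replication genes held lower calls as well. Of 29 cyclins, cyclin-dependent kinases and their regulators 6 fell and 0 rose, with a median of -0.48. Ccnb2, a mitotic cyclin, had 182 and 162 in WT and 70.1 and 65.9 in KO (log2 -1.32, SE 0.16, adjusted p = 0.00588), and E2f2, a transcription factor of S phase entry, 1328 and 1181 in WT against 672 and 541 in KO (log2 -1.05, SE 0.12, adjusted p = 0.004505). Both genes were separated without overlap, as was every called gene. In origin licensing and fork genes 6 of 31 fell, Lig1, the helicase subunit genes Mcm3, Mcm5 and Mcm6, the helicase loader Cdc6 and the initiation factor Mcm10, while the list median of -0.09 was near that of all genes. Mcm6 had 1183 and 1258 in WT and 701 and 772 in KO (log2 -0.73), and Lig1, the ligase that joins Okazaki fragments, 644 and 678 in WT against 386 and 414 in KO (log2 -0.72). In nucleotide supply 3 of 22 fell, both subunits of ribonucleotide reductase (Rrm2, 429 and 412 in WT and 152 and 157 in KO, and Rrm1, 1077 and 1104 in WT against 854 and 729 in KO) and the thymidine kinase Tk1, and 1 rose, Impdh2 of guanine nucleotide synthesis. Homologous recombination and DNA damage genes had 6 of 22 lower, led by Uhrf1, which maintains DNA methylation at replication (479 and 399 in WT and 276 and 255 in KO). No gene of the origin, cyclin, mitosis and recombination lists was called higher, beside 2.05% of all tested genes. Lower cyclin genes numbered 3, 3, 7 and 2, lower origin licensing genes 3, 2, 3 and 2, lower nucleotide supply genes 2, 1, 2 and 1, and lower recombination genes 0, 3, 2 and 1 with WT 1, WT 2, KO 1 and KO 2 left out in turn. With quantile normalization 2 recombination genes were called. Rrm1 (WT 1, WT 2, KO 2 or any Treg library, adjusted p up to 0.119) and Uhrf1 (WT 1 or KO 2, adjusted p up to 0.0718) lost their calls when 1 of these libraries was left out.

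Promoters of division genes are shown because most of the mitosis genes share an element that the choice of the list did not use. The cell cycle homology region, through which the DREAM and MuvB complexes are known to act, was searched as TTTGAA or TTCGAA on both strands, and CCAAT boxes, bound by NF-Y, as CCAAT. The first was found in 37 of the 44 tested mitosis genes with a promoter entry (84.1%), against 17.05% of 9696 tested genes and 18.99% of the 516 genes called lower. Within the list it was in 12 of 15 called members, a share like that of the whole list. In the cyclin list, which holds Ccnb2, it was in 7 of the 21 tested genes with an entry (33.3%). The CCAAT box was in 70.5% of the mitosis genes and 43.2% of tested genes. The stretches below run from 90 bases before the start to 30 bases from it on, with either element in capitals where it occurs, on either strand. The stretch of Ncapg2 holds no CCAAT box. They are Top2a (chr11:99024160-99024279, minus strand), Cenpf (chr1:189688057-189688176, minus strand), Ncapg2 (chr12:116405346-116405465, plus strand), Racgap1 (chr15:99651627-99651746, minus strand), Ccnb2 (chr9:70421525-70421644, minus strand) and Cdc25b (chr2:131186858-131186977, plus strand) of GRCm38.p6, from RefSeq.
Top2a: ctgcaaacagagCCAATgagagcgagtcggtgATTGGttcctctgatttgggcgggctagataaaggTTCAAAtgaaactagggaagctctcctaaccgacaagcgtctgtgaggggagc
Cenpf: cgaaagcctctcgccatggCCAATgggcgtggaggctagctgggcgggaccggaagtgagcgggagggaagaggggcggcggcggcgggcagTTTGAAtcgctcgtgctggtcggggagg
Ncapg2: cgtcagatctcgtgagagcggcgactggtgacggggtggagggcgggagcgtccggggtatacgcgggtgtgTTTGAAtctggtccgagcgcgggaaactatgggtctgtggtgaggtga
Racgap1: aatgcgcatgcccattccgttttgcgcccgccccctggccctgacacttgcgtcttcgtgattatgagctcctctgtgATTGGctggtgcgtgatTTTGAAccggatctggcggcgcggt
Ccnb2: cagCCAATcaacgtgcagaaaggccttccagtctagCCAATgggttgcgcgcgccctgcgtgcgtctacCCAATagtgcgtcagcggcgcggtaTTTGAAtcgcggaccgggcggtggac
Cdc25b: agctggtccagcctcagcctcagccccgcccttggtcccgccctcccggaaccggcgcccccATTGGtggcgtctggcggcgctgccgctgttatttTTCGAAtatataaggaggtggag
Top2a, the topoisomerase of dividing cells, fell by 1.02 on the log2 scale, Ncapg2, a condensin subunit, by 1.87, Racgap1, a protein of cytokinesis, by 0.71, and Cdc25b, the phosphatase that activates mitotic kinases, by 0.48. A motif for E2F factors, searched as TTTGGCGC, TTTCCCGC, TTTGGCGG or TTTCCCGG on both strands, was in 12 of 25 origin licensing genes (48%) and 6.54% of tested genes. Racgap1 (WT 2, adjusted p up to 0.0593) and Cdc25b (WT 2 or KO 2, adjusted p up to 0.0616) lost their calls when 1 of these libraries was left out.

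Among transcription factors that direct helper T cell programmes the calls were all lower in KO. Of 31 tested, 15 fell and none rose, with a median of -0.63, beside 5.56% of all tested genes called lower and 2.05% higher. Tbx21, which encodes the type 1 helper factor T-bet, had 609.7 and 667 in WT and 329 and 313 in KO. Irf4, induced by antigen receptor signals, had 1469 and 1774 in WT against 896 and 881 in KO, and its partner Batf 1129.6 and 1166 in WT against 789.6 and 798 in KO (log2 -0.53, SE 0.07, adjusted p = 0.00608). In each, both KO libraries lay below both WT libraries, as in every gene called lower. Hif1a, the factor of the response to low oxygen, had 6074 and 6508 in WT and 4394 and 4195 in KO (log2 -0.55, SE 0.06, adjusted p = 0.00336). Ahr, a ligand-activated factor of type 17 cells, had 492 and 446 in WT against 294 and 261 in KO (log2 -0.76), and Pparg, a nuclear receptor, 39.2 and 34.6 in WT against 2.59 and 3.44 in KO (log2 -3.24). Maf and Bhlhe40, regulators of helper cytokines, fell by 0.47 and 1.15. Of the 15 calls 11 held whichever library was left out, and lower members numbered 14, 11, 13 and 11 with WT 1, WT 2, KO 1 and KO 2 left out in turn.

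Follicular helper genes, the programme of T cells that help B cells, had 17 of 22 members lower, none higher, and a median of -0.70. Shares over all tested genes were 5.56% lower and 2.05% higher. Bcl6, the lineage factor, had 1012 and 1068 in WT and 692 and 647 in KO (log2 -0.63, SE 0.08, adjusted p = 0.00623). Tox2, a nuclear factor that acts with it, had 1602 and 1571 in WT against 1030.4 and 870.2 in KO (log2 -0.74), and Angptl2, a secreted protein, 1513 and 1735 in WT against 919 and 799 in KO (log2 -0.92). The secreted antagonist gene Sostdc1 had the widest gap, 1565 and 1679 in WT and 497 and 433 in KO (log2 -1.80, SE 0.14). Cxcr5, the receptor that leads cells into follicles, had 935 and 943 in WT against 523 and 483 in KO, and Il21, the cytokine of these cells, 812 and 789 in WT against 427 and 433 in KO, with log2 differences of -0.90 and -0.90. This list shares members with the effector factors and with the coinhibitory receptors, so the counts are not independent. Called follicular genes numbered 12, 11, 13 and 11 with WT 1, WT 2, KO 1 and KO 2 left out in turn. Cxcr5 (any Teff library, adjusted p up to 0.111) and Il21 (any Teff library, Treg WT 1 or Treg WT 2, adjusted p up to 0.125) lost their calls when 1 of these libraries was left out.

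Surface receptors of activated T cells held lower calls in both the costimulatory and the coinhibitory group. Of 22 costimulatory receptors and TNF family members 11 fell (median -0.38), and of 19 coinhibitory receptors 9 fell (median -0.66). No call was higher in either, beside 5.56% of all tested genes called lower and 2.05% higher. Tnfrsf9, which encodes 4-1BB, had 358 and 360.1 in WT and 159.9 and 173 in KO (log2 -1.11, SE 0.07, adjusted p = 0.000725). Tnfsf11, the ligand RANKL, had 727 and 832 in WT against 362 and 320.3 in KO (log2 -1.19, SE 0.10, adjusted p = 0.00168). In both genes the replicates lay close together and the groups far apart. Among the inhibitory receptors Tigit had 1107 and 1043 in WT against 668 and 571 in KO (log2 -0.80, SE 0.09, adjusted p = 0.00426), Pdcd1, which encodes PD-1, 1166 and 1315 in WT against 767 and 784 in KO, and Lag3 1468 and 1527 in WT against 964 and 779.6 in KO (log2 -0.79). Cd200 and Havcr2, which encodes TIM-3, fell by 0.79 and 1.18, and Ctla4, the brake on CD28 signals, by 0.39. Costimulatory calls numbered 5, 5, 7 and 4, and coinhibitory calls 7, 6, 6 and 4 with WT 1, WT 2, KO 1 and KO 2 left out in turn. Cd200 (KO 2, adjusted p up to 0.0615), Havcr2 (WT 2, KO 1 or KO 2, adjusted p up to 0.1096) and Ctla4 (WT 2, adjusted p up to 0.0653) lost their calls when 1 of these libraries was left out.

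Some chemokine receptors that lead T cells into inflamed tissue fell, and the receptor for lymph node homing rose. Of 28 chemokines and receptors 11 fell and 1 rose, with a median of -0.81. Cxcr3, a receptor of type 1 cells, had 2150.4 and 2254 in WT and 1286 and 1237 in KO (log2 -0.80, SE 0.07). Ccr8 had 148 and 159 in WT against 77.4 and 82.4 in KO (log2 -0.93, SE 0.10, adjusted p = 0.00328). For each of these receptors both KO libraries lay below both WT libraries, as for every gene called lower. Ccr7, the lymph node homing receptor, had 5543 and 5163 in WT and 7447 and 6774 in KO (log2 0.41, SE 0.06, adjusted p = 0.0127). Lower chemokine genes numbered 5, 3, 7 and 3 with WT 1, WT 2, KO 1 and KO 2 left out in turn. Ccr7 (WT 2, adjusted p up to 0.0661) lost its call when 1 of these libraries was left out.

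Among 44 cytokines and cytokine receptors 7 fell and 2 rose. Tnf had 810.04 and 784 in WT and 503 and 476 in KO, and Ifng, the type 1 cytokine, 1009.9 and 1112 in WT against 445 and 534 in KO (log2 -1.12, SE 0.20, adjusted p = 0.02105). Il17a, the cytokine of type 17 cells, had 231 and 264 in WT and 218 and 174 in KO, both KO values below both WT values, and was not called (log2 -0.34, adjusted p = 0.525). Il2rb, the IL-2 receptor beta chain, had 12751 and 13881 in WT against 9619 and 8512 in KO (log2 -0.56, SE 0.07), and Csf2rb, the beta chain for GM-CSF, 188 and 218 in WT against 64.7 and 63.7 in KO (log2 -1.64). The genes that rose were Il7r, the receptor for the survival cytokine IL-7, with 10119 and 9558 in WT and 15166 and 17674 in KO, and Ifngr2, a chain of the interferon-gamma receptor, with 1150.5 and 1029 in WT against 1491 and 1555 in KO (log2 0.48). Of 20 STAT and SOCS genes 3 fell, among them Stat4, which acts in type 1 cells (log2 -0.42), and Cish, an inhibitor induced by STAT5 (log2 -0.65). Lower cytokine genes numbered 3, 2, 7 and 6 with WT 1, WT 2, KO 1 and KO 2 left out in turn. Ifng (any Teff library, adjusted p up to 0.1102), Csf2rb (WT 2, adjusted p up to 0.0582) and Ifngr2 (WT 2, KO 1 or KO 2, adjusted p up to 0.0998) lost their calls when 1 of these libraries was left out.

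Some early genes of antigen receptor signalling fell. Of 27 early genes 12 fell and none rose (median -0.45), beside 5.56% of all tested genes called lower and 2.05% higher. Of 29 signalling components 2 were called (6.9%, beside 7.61% of all tested genes), and the median was -0.06. The 2 were the kinase gene Zap70 (log2 -0.28) and the adaptor gene Lcp2 (log2 -0.30). Rgs16, a regulator of G protein signals, had 966 and 860.1 in WT and 522 and 399.6 in KO (log2 -0.996, SE 0.13, adjusted p = 0.00674). Nr4a3, an orphan nuclear receptor, had 1100.1 and 1023 in WT against 645 and 462 in KO (log2 -0.96), and Rgs1 4865 and 5785 in WT against 3548 and 2840.1 in KO (log2 -0.74). KO 2 was the lowest library for all 3 genes. NF-kB subunits and targets had 7 of 21 lower and none higher, among them Nfkbia, the inhibitor that the pathway itself induces, with 10926 and 10770.5 in WT and 7478 and 6073 in KO (log2 -0.69, SE 0.09). Lower early genes numbered 2, 1, 15 and 6, and lower NF-kB genes 4, 5, 7 and 4 with WT 1, WT 2, KO 1 and KO 2 left out in turn. Zap70 (WT 2, KO 1, KO 2 or any Treg library, adjusted p up to 0.128), Lcp2 (WT 1, WT 2, KO 1 or any Treg library, adjusted p up to 0.188), Nr4a3 (WT 1 or WT 2, adjusted p up to 0.0564) and Rgs1 (WT 2, adjusted p up to 0.0661) lost their calls when 1 of these libraries was left out. Lcp2 (TMM factors, quantile normalization or no filter on low values, adjusted p up to 0.0585) also lost its call under another scaling or filter.

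**Figure D3:**
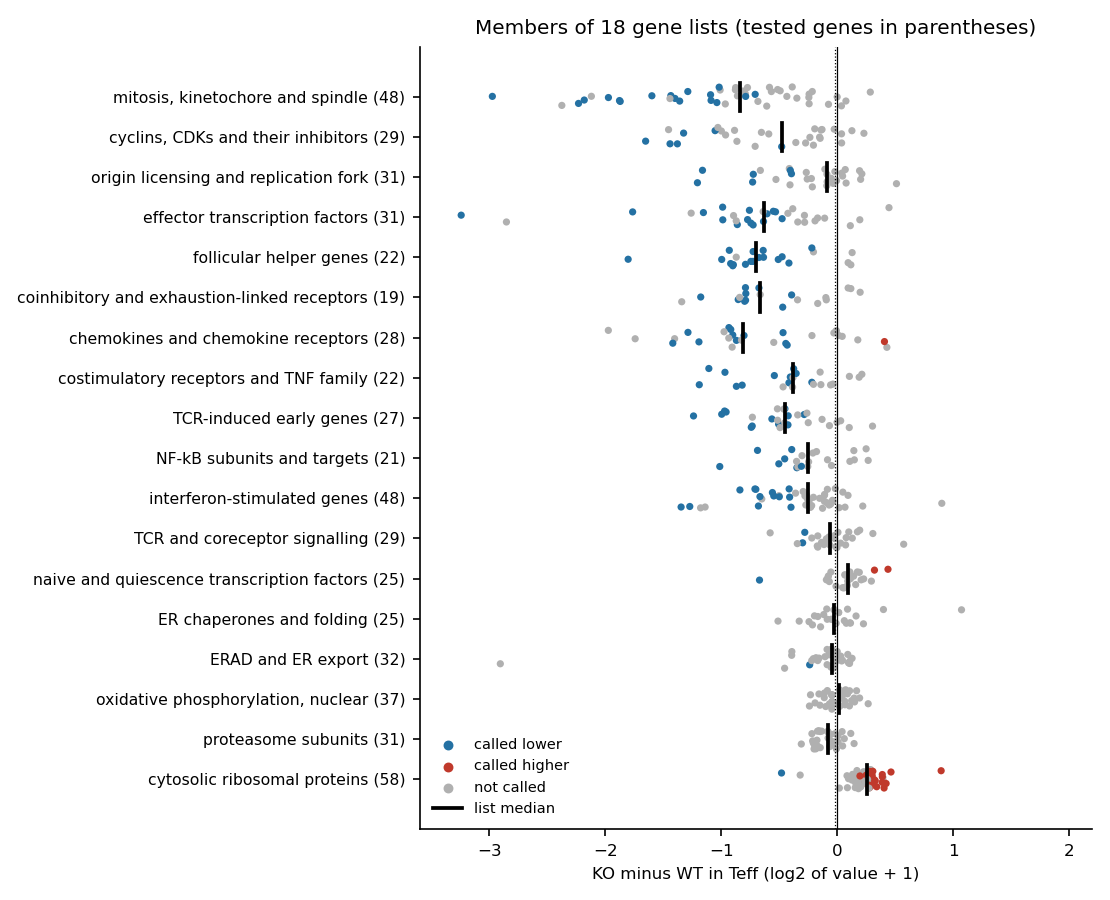
Differences between KO and WT Teff (log2 of value + 1) for each tested member of 18 gene lists; blue points are called lower, red called higher, grey not called, black bars are list medians and the dotted line is the median of all tested genes. The mitosis list has a median of -0.84 and the follicular helper list of -0.70, the ER chaperone list lies at -0.03 with no call, and the ribosomal protein list stands to the right at 0.26.

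Genes of migration, granules and the cytoskeleton of activated T cells held calls in both directions, more of them lower. Of 32 annexins, S100 proteins, galectins and cytoskeletal genes 11 fell and 2 rose, beside 5.56% of all tested genes called lower and 2.05% higher. S100a4, a calcium-binding protein of memory and effector cells, had 2548 and 2581 in WT and 1455 and 1347 in KO (log2 -0.87, SE 0.06, adjusted p = 0.000965). Anxa2, a membrane-binding annexin, had 1735 and 1832 in WT against 904 and 859.5 in KO (log2 -1.02, SE 0.08), and Plek, a kinase substrate of leukocytes, 476 and 461 in WT against 151 and 125 in KO (log2 -1.76, SE 0.15). S100a6, S100a11 and the galectin gene Lgals1 fell by 0.74, 0.53 and 0.88. Against these, another galectin gene, Lgals3, rose from 321 and 348 in WT to 646 and 777 in KO (log2 1.08, SE 0.16). Integrins and adhesion molecules had 6 of 29 lower and none higher, with Itgb1, the beta 1 chain, at 12913 and 14135 in WT against 8916 and 8069 in KO and Icam1 at 1588 and 1595 in WT against 1241 and 1185 in KO. Of 16 cytotoxic granule and killer genes 4 fell, among them Gzmb, granzyme B (239 and 282 in WT and 104 and 86.5 in KO) and Nkg7 (log2 -0.67), and 1 rose, Prf1, the pore-forming protein perforin (442 and 436 in WT against 775 and 757 in KO, log2 0.80). The NK cell markers Tyrobp and Fcer1g lay lower in KO as well (log2 -1.07 and -1.15), and the part of NK cells in these values was not tested. Lower annexin, S100 and cytoskeletal genes numbered 9, 6, 9 and 8, lower integrin genes 5, 4, 3 and 3, and lower cytotoxic genes 3, 1, 3 and 2 with WT 1, WT 2, KO 1 and KO 2 left out in turn. Lgals3 (WT 1, WT 2 or KO 2, adjusted p up to 0.0666), Nkg7 (WT 2 or KO 2, adjusted p up to 0.0568), Prf1 (any Teff library, adjusted p up to 0.0922), Tyrobp (WT 1, WT 2, KO 2 or any Treg library, adjusted p up to 0.178) and Fcer1g (WT 1, WT 2, KO 2 or any Treg library, adjusted p up to 0.1202) lost their calls when 1 of these libraries was left out. Fcer1g (quantile normalization, adjusted p up to 0.0549) also lost its call under another scaling or filter.

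Many genes best known from Treg were lower in KO Teff. Of 21 tested 12 fell and 1 rose, with a median of -0.40. Penk, which encodes the opioid precursor proenkephalin, had 328 and 345 in WT and 117 and 90.01 in KO (log2 -1.71, SE 0.12, adjusted p = 0.000776). Plagl1, a zinc finger factor, had 337 and 328 in WT against 128 and 108 in KO (log2 -1.49, SE 0.12), and Izumo1r, folate receptor 4, 4072 and 4233 in WT against 3024 and 2819.6 in KO (log2 -0.51). Ikzf2, which encodes Helios, had 1656 and 2724 in WT and 1185 and 969 in KO, so that WT 2 stood far above the other 3 libraries (log2 -0.99, adjusted p = 0.0383). The gene that rose was Gpr83, an orphan receptor (184 and 189 in WT and 325 and 361 in KO, log2 0.88). The summed Treg markers were 10385 and 12000.04 in WT and 8180.01 and 7335 in KO, while Foxp3 was at 0 in WT and just above it in KO. Lower Treg genes numbered 11, 5, 9 and 7 with WT 1, WT 2, KO 1 and KO 2 left out in turn. Ikzf2 (WT 2, KO 1, KO 2 or any Treg library, adjusted p up to 0.176) lost its call when 1 of these libraries was left out.

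Factors of the resting state moved in both directions. Of 25 tested 2 rose and 1 fell, with a median of 0.09, beside 2.05% of all tested genes called higher and 5.56% lower. Satb1, a chromatin organizer, had 9939.5 and 9327 in WT and 12266 and 11821 in KO (log2 0.32), and Txnip, an inhibitor of thioredoxin and glucose uptake, 14888 and 16218 in WT against 20024 and 22171 in KO (log2 0.44). Gfi1, a transcriptional repressor, fell from 588 and 615 to 397 and 359.5 (log2 -0.67). Klf2, the factor of quiescence and egress, had 16311 and 15830.5 in WT and 18962 and 15979.6 in KO, with overlapping groups (log2 0.12, adjusted p = 0.485). Satb1 (WT 2, KO 1 or KO 2, adjusted p up to 0.0865) and Txnip (WT 1 or KO 2, adjusted p up to 0.0747) lost their calls when 1 of these libraries was left out.

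Many ribosomal protein genes rose by a small amount. Of 58 tested 26 rose and 1 fell, 56 lay above 0, and the median was 0.26. Their summed value was 1084931 and 1179186 in WT and 1339098 and 1320788 in KO, a log2 difference of 0.23. Rps15 had 27761 and 28067 in WT and 34564 and 34569.7 in KO (log2 0.31, SE 0.04, adjusted p = 0.00515), Rps20 7071 and 7398 in WT against 9703 and 9266 in KO (log2 0.39), and Rplp2, a stalk protein, 10272 and 9994 in WT against 12947 and 13622 in KO (log2 0.39). The called genes with the highest values were also of translation, with Eef2, the elongation factor, at 73343 and 72380.2 in WT and 87645 and 86301 in KO (log2 0.26, not called under quantile normalization) and Tpt1, the translationally controlled tumour protein, at 51046 and 54343 in WT against 64647 and 64263 in KO (log2 0.29). Ribosome biogenesis genes had 3 of 34 higher (Npm1, Gnl3 and Rrp9) and none lower, with a median of 0.16. All tested genes had 2.05% called higher and 5.56% lower. The biogenesis calls numbered 0, 1, 0 and 0 with WT 1, WT 2, KO 1 and KO 2 left out in turn. The calls of ribosomal proteins depended on the libraries, the scaling and the form of the test. They numbered 11, 16, 16 and 7 with WT 1, WT 2, KO 1 and KO 2 left out in turn, and 15 with quantile normalization, where the median was 0.19. Fitted on the 4 Teff libraries alone 1 was called higher, and 3 without trend and robust shrinkage.

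Some ribosomal values cannot be read gene by gene, because near-identical copies may share reads. Rps3a1 rose from 20628 and 23382 in WT to 40924 and 40934 in KO (log2 0.90), while its pseudogene copy Rps3a3 had 6861 and 8241 in WT and 41.3 and 87.5 in KO (log2 -6.94) and Rps3a2 18535 and 21781 in WT against 12295 and 10159.8 in KO (log2 -0.85). The sum of the 3 was 46024 and 53405 in WT and 53259 and 51181 in KO, with overlapping groups and a log2 difference of 0.07. Rps18 fell by 0.48 while its copies Rps18-ps6 and Rps18-ps3 rose, from 22.1 and 51.4 in WT to 10462 and 9538 in KO and from 6.03 and 64.5 to 3106 and 3172 (log2 8.17 and 7.19), and the sum of these 3 rose by 0.54. The same exchange between copies was seen in Treg, where Rps3a3 differed by -6.70 and Rps18-ps6 by 7.43. The copies were named after their values were seen. Rps3a2 (WT 2, adjusted p up to 0.0545) lost its call when 1 of these libraries was left out. Without Rps3a1 and Rps18 the summed ribosomal protein value still differed by 0.23. Rps18 (KO 2, adjusted p up to 0.0747) lost its call when 1 of these libraries was left out.

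**Figure D4:**
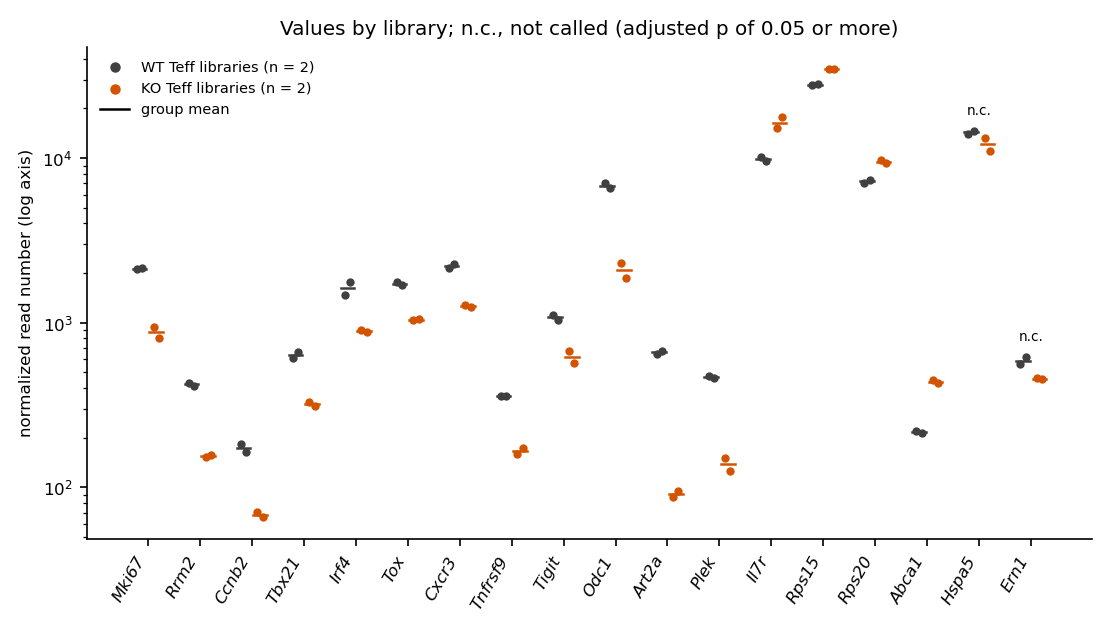
Normalized read number (log axis) of 18 genes in the 2 WT (dark) and 2 KO (orange) Teff libraries, with the group mean as a bar. Genes of division, helper function and surface receptors sit lower in both KO libraries, Il7r, Rps15, Rps20 and Abca1 sit higher, and Hspa5 and Ern1 were not called (n.c.).

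Metabolic lists had between 0% and 11.8% of their tested members called, beside 7.61% of all tested genes. The highest share was in fatty acid synthesis and lipid handling, with 2 of 17. Odc1, the rate-limiting enzyme of polyamine synthesis, had 7006 and 6566 in WT and 2309 and 1856 in KO (log2 -1.71, SE 0.10, adjusted p = 0.000379). It was the only call among 21 genes of amino acid transport and polyamines. Oxidative phosphorylation (37 nuclear genes), the tricarboxylic acid cycle (24) and the proteasome (31) had no call in the limma test, with medians of 0.02, -0.06 and -0.08 and with 3, 4 and 4 members at an unadjusted p under 0.05. In glycolysis 1 of 23 fell, Gapdh, with 25342 and 25135 in WT and 21158 and 20740.1 in KO (log2 -0.27, SE 0.05). Cholesterol synthesis had 2 of 24 lower, among them Fdps (log2 -0.51). Abca1, the exporter of cholesterol from cells, rose from 219 and 214 to 446 and 429 (log2 1.01, SE 0.10, adjusted p = 0.00318), and Mylip, a ubiquitin ligase gene, rose by 0.38. Of 13 mitochondrially encoded genes 1 was called, ND3, a subunit of complex I, with 723 and 1328 in WT and 119 and 80.3 in KO (log2 -3.31), and the list median was -0.14. Among 17 tRNA synthetases 1 fell, Vars, with 3499 and 3595 in WT and 2523 and 2062 in KO (log2 -0.64). Gapdh (WT 1, WT 2 or KO 2, adjusted p up to 0.0717), Fdps (any library, adjusted p up to 0.111), Mylip (any library, adjusted p up to 0.128) and Vars (WT 2, adjusted p up to 0.0614) lost their calls when 1 of these libraries was left out. Fdps (quantile normalization, adjusted p up to 0.0515) also lost its call under another scaling or filter.

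Interferon-stimulated genes were lower in part. Of 48 tested 13 fell and none rose, with a median of -0.25, beside 5.56% of all tested genes called lower and 2.05% higher. Oas1a, an antiviral synthetase gene, had 654 and 611 in WT and 375 and 398 in KO (log2 -0.71, SE 0.09, adjusted p = 0.00552), and Isg20, an exonuclease gene, 483 and 577 in WT against 280.3 and 310.04 in KO (log2 -0.84). Gbp2, a GTPase induced by interferon-gamma, had 1960.1 and 2129 in WT against 1340.5 and 1559 in KO (log2 -0.50). Called interferon genes numbered 5, 4, 3 and 7 with WT 1, WT 2, KO 1 and KO 2 left out in turn. Gbp2 (WT 1, WT 2 or KO 1, adjusted p up to 0.106) lost its call when 1 of these libraries was left out.

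Class I histocompatibility genes moved in both directions, 6 higher and 3 lower of 25 tested. H2-D1, a classical class I gene, had 12632 and 12093 in WT and 18781 and 19457 in KO (log2 0.63, SE 0.04, adjusted p = 0.000776), and H2-K1, the other classical gene, 11215 and 10279.8 in WT against 9096 and 8838 in KO (log2 -0.26). H2-Q1 had 92.3 and 79.1 in WT and 958 and 883 in KO (log2 3.41), and H2-Bl 29.1 and 20.3 in WT against 472 and 388 in KO (log2 4.08). These genes are near-identical in long stretches, so how reads were divided among them is uncertain. In Treg the log2 differences were 0.58 for H2-D1, -0.42 for H2-K1, 3.47 for H2-Q1 and 3.97 for H2-Bl. Higher class I genes numbered 5, 4, 4 and 4 with WT 1, WT 2, KO 1 and KO 2 left out in turn. H2-K1 (WT 1, KO 1, KO 2 or any Treg library, adjusted p up to 0.148) lost its call when 1 of these libraries was left out. H2-K1 (library totals or TMM factors, adjusted p up to 0.0587) also lost its call under another scaling or filter.

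Genes of cell death moved in both directions. Of 28 tested 4 fell and 3 rose. The 3 that rose all encode BH3-only proteins, which promote death. Bcl2l11, which encodes BIM, had 1236 and 1083 in WT and 1806 and 1711 in KO (log2 0.60, SE 0.10, adjusted p = 0.0157), Bbc3, which encodes PUMA, 672 and 631 in WT against 1362 and 1078 in KO (log2 0.89), and Bmf 52.2 and 75.002 in WT against 180.3 and 156 in KO (log2 1.41). Among the genes that fell were Bcl2l1, which encodes the survival protein BCL-XL (695 and 743 in WT and 444 and 464 in KO, log2 -0.66), and its relatives Bcl2a1b and Bcl2a1d. Bcl2a1b and Bcl2a1d are near-identical copies, so their single values are uncertain. Lower death genes numbered 4, 1, 3 and 2, and higher ones 1, 0, 0 and 1 with WT 1, WT 2, KO 1 and KO 2 left out in turn. Bcl2l11 (WT 2, KO 1 or KO 2, adjusted p up to 0.0816), Bbc3 (WT 1, WT 2 or KO 1, adjusted p up to 0.0887), Bmf (any Teff library, Treg WT 1 or Treg WT 2, adjusted p up to 0.159), Bcl2l1 (WT 2, adjusted p up to 0.0653), Bcl2a1b (WT 2 or KO 2, adjusted p up to 0.0947) and Bcl2a1d (WT 2, KO 1, KO 2 or any Treg library, adjusted p up to 0.141) lost their calls when 1 of these libraries was left out.

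Genes that act on extracellular nucleotides had 4 of 15 members lower and none higher, beside 5.56% and 2.05% of all tested genes. Art2a, an ADP-ribosyltransferase of the T cell surface that GENCODE classes as a polymorphic pseudogene (chromosome 7, 101552453 to 101560865), had 648 and 671 in WT and 87.7 and 94.7 in KO (log2 -2.84, SE 0.11, adjusted p = 6.95e-05). Its neighbour and close relative Art2b had 989.6 and 1048 in WT and 1059 and 1260.3 in KO, with no call (log2 0.18, adjusted p = 0.314), and reads may be divided between these relatives. P2rx7, the ATP-gated channel, had 2991 and 3111 in WT against 2027 and 1895 in KO (log2 -0.64, SE 0.06), and Cd38, which consumes NAD, 179 and 190.3 in WT against 94.5 and 86.1 in KO (log2 -1.03). Of 22 lysosomal genes 2 rose and 4 fell. Ctse, an aspartic protease, rose from 4170.5 and 4231 to 9818 and 10351 (log2 1.26, SE 0.05, adjusted p = 6.95e-05) and Ctsb, a cysteine protease, fell from 7099 and 6849 to 5153 and 4855 (log2 -0.48). In heat shock proteins Hspa1b, the inducible HSP70, fell from 658 and 747 to 331 and 339.9 (log2 -1.06) and Hsf1, the heat shock transcription factor, rose from 1821 and 1802 to 2156 and 2281 (log2 0.29), and 18 of the 23 tested members lay above 0 (median 0.07). Hsf1 (any library, adjusted p up to 0.137) lost its call when 1 of these libraries was left out.

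Large changes were also found in single genes outside these programmes. St6galnac2, a sialyltransferase (chromosome 11, 116675303 to 116694868), had 129 and 105 in WT and 5437 and 5333 in KO (log2 5.52, SE 0.13, adjusted p = 6.13e-06). Its neighbour St6galnac1 had 216 and 246 in WT against 1785 and 1747 in KO (log2 2.93). Both KO libraries of either gene stood far above both WT libraries. Gdpd3, a phosphodiesterase-family gene (chromosome 7, 126766334 to 126775649), had 1392 and 1236 in WT and 32.5 and 29.9 in KO (log2 -5.35, SE 0.14, adjusted p = 7.13e-06), and Eps8l1, an actin regulator, 1351 and 1145 in WT against 88.5 and 83.7 in KO (log2 -3.84). Mid1, which lies on chromosome X and encodes a ubiquitin ligase, had 916 and 766 in WT against 3570.4 and 3464 in KO (log2 2.07), and Mtmr9, a phosphatase-family gene, 856 and 899 in WT against 2162 and 2358 in KO (log2 1.36). Among further genes with large changes Cygb, a globin gene, rose by 3.46, Selenbp1, a selenium-binding protein gene, by 2.44, and H2-T3, a non-classical class I gene, by 4.33, while Lrrn3, a leucine-rich repeat protein gene, fell by 3.42, Lad1, a filament anchor gene, by 2.87 and Itgb5, an integrin chain gene, by 2.12. Each of the first 6 genes differed in the same direction in Treg, by 4.004, 5.29, -5.57, -3.53, 2.29 and 1.67.

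Further genes changed strongly in Teff beside smaller or opposite differences in Treg. Adamts17, a secreted protease, had 2.19 and 3.13 in WT and 186 and 194 in KO Teff (log2 5.72, SE 0.48) and a Treg difference of 0.36. Actr3b, an actin-related protein, had 4.51 and 3.72 in WT against 48.4 and 91.1 in KO (log2 3.72, Treg -0.69), and Fam166a 0.105 and 0.211 in WT against 93.8 and 107 in KO (log2 6.45). In Treg Fam166a had 68.9 and 73.005 in WT against 32.8 and 0.103 in KO, a difference of -3.56 that was not called (adjusted p = 0.279) and for which the KO libraries lay far apart. On the lower side Fhdc1, a formin-family gene, had 155 and 222 in WT against 15.4 and 11.3 in KO (log2 -3.72, Treg -0.04), Arhgap22, a regulator of small GTPases, 67.7 and 75.4 in WT against 6.33 and 3.58 in KO (log2 -3.64, Treg 1.32), and Inppl1, the lipid phosphatase SHIP2, 1607 and 2193 in WT against 427 and 516 in KO (log2 -1.996, Treg -0.99). Hells, a chromatin remodeller of dividing cells, had 587 and 386 in WT against 127 and 76.7 in KO (log2 -2.26, Treg -0.62), and Kpna2, a nuclear import receptor, 277 and 255 in WT against 21.6 and 60.9 in KO (log2 -2.84, Treg -1.93). The KO libraries of both lay below both WT libraries, as for every gene called lower. In none of these 8 did the test of the difference between sorts pass. Fam166a (any Teff library, Treg WT 1 or Treg WT 2, adjusted p up to 0.136), Hells (WT 1 or KO 2, adjusted p up to 0.0525) and Kpna2 (WT 1 or WT 2, adjusted p up to 0.0756) lost their calls when 1 of these libraries was left out.

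The same genotype comparison in Treg called 189 genes (1.5%). Its differences share no library with those in Teff, but the labels do not state whether both sorts came from the same mice. The tests of both sorts used the same spread for each gene, estimated from all 8 libraries, so their calls are not independent. Both comparisons called 135 genes, 14.1% of the Teff calls and 71.4% of the Treg calls, and 133 of them had the same direction. Genes called lower in Teff had a median Treg difference of -0.31, and 606 of 700 lay below 0 there. Genes called higher in Teff had a median Treg difference of 0.26, with 218 of 258 above 0. The median Treg difference of all tested genes was -0.01. By list, the Teff and Treg medians were -0.84 and -0.32 for mitosis, -0.63 and -0.07 for effector transcription factors, -0.70 and -0.01 for follicular helper genes, and 0.26 and -0.01 for ribosomal proteins. Other lists lay closer together, at -0.25 and -0.20 for interferon-stimulated genes and likewise -0.25 and -0.20 for NF-kB genes. Among marker lists the medians were -0.94 and -0.78 for macrophages and -1.16 and -0.90 for dendritic cells. For NK cells they were -1.07 and 0.05, and for plasma cells -1.24 and -0.31.

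A direct test of the difference between the Teff and the Treg effect called 3 genes (0.0238%), with 1331 at an unadjusted p under 0.05. Art2a differed by -2.84 in Teff and -0.50 in Treg (difference -2.34, adjusted p = 0.00835). Zswim9, a zinc finger gene, had 206 and 277 in WT and 210.1 and 210.1 in KO Teff but 20.03 and 22.2 in WT and 269 and 269 in KO Treg (difference -3.79, adjusted p = 0.00835). Trav7d-6, a variable segment of the T cell receptor alpha chain, had 80.4 and 83.7 in WT against 26.8 and 28.8 in KO Teff, and 0 and 0 in WT against 17.7 and 25.5 in KO Treg (difference -6.005, adjusted p = 0.0203). It is listed at 0 in both WT Treg libraries, so the size of this difference depends on the pseudocount, and its call in Teff (log2 -1.53, adjusted p = 0.0456) was lost with any 1 library left out. No member of the lists other than Art2a passed this test, so the larger list medians in Teff were not shown to differ from those in Treg. The count of 3 ranged from 0 to 3 with 1 library left out, and was 0 without Teff WT 2 or Treg WT 1.

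**Figure D5:**
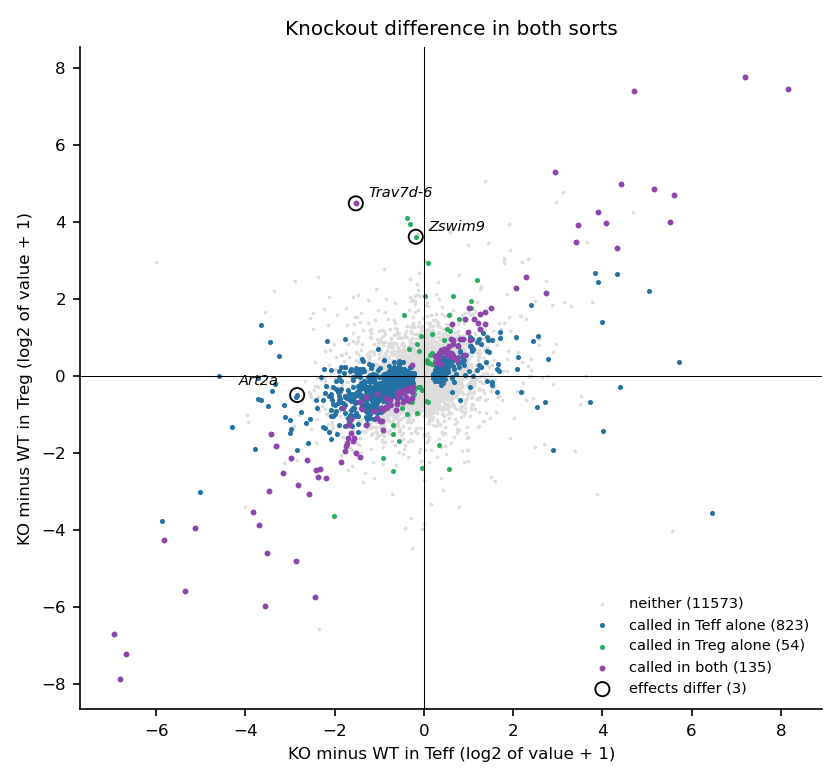
Difference between KO and WT in Treg (vertical) against that in Teff (horizontal), both as log2 of value + 1, for 12585 genes; colours show where a gene was called and rings mark the 3 genes whose effects differed between sorts. Of the 135 genes called in both, 133 lie in the quadrants of equal direction.

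The share of called genes differed between genome regions. Over all tested genes it was 7.61%, with 2.05% higher and 5.56% lower. On chromosome 14, 80 of 579 tested genes were called (13.8%), more than on any other chromosome, with chromosome 12 next at 10.4% and chromosome 19 lowest of the chromosomes with over 100 tested genes at 3.51%. Chromosome 14 holds the T cell receptor alpha locus, where 11 of 88 variable segments were higher and 13 lower, with a median of -0.08. Of 21 beta chain variable segments 1 was higher and 4 lower. Between H2-K1 and H2-M3 on chromosome 17, 14 genes were higher and 11 lower of 112 tested (22.3%), and 15 of them were called in Treg too. Within 15 megabases of Ern1 on chromosome 11, 20 genes were higher and 30 lower of 384 (13.02%), St6galnac1 and St6galnac2 among them. These regions were chosen after the values were seen, and segments and class I genes share sequence, so their reads may be divided among relatives.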

How the data were processed

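The deposited table holds, for 18438 mouse genes in 8 libraries, a normalized read signal that is not whole-numbered. The submitters' processing notes name the build mm10, DESeq2 1.28.1, R 4.0.3, Salmon 0.14.1 and Trim Galore 0.4.4; their settings are not given in the sources used here. Between 57.1% and 60.1% of low values per library were whole multiples (within 0.02) of the commonest step, so reads were not recovered, no count test was run and depth in reads is unknown. The fold changes (log2) and p-values the authors deposited were not used.

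Groups came from the sample labels. Values were taken as log2(value + 1) and fitted in limma 3.58.1 (R 4.3.3, trend and robust shrinkage) with 1 coefficient for each of the 4 groups of 2 libraries, for genes at 10 or more in 2 Teff libraries. P-values were adjusted by Benjamini-Hochberg over all tested genes. The procedure was run on simulated libraries with independent normal noise, of the same spread for a gene in every group. That run does not show how often calls in these data are false. Gene positions are from GENCODE M21 (GRCm38) and promoters from RefSeq GRCm38.p6. Alternatives were other scalings, pseudocounts, filters and limma settings, a replicate block, and each library left out.

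Named were Ern1, Xbp1, Foxp3 and Il2ra, per list the 6 members of smallest p and called members moving against the rest, outside the lists the 20 higher and 20 lower called genes of largest change with a mean of 50 or more and no overlap, the 10 called genes of highest value, and genes differing between sorts. Ahr, Art2b, Bcl6, Bhlhe40, Calr, Creld2, Havcr2, Ifng, Ighm, Il17a, Il21, Klf2, Maf and Tox2 were named besides, after their values were seen. A few genes that the rule names are not reported here. The comparison and the gene lists were chosen with earlier results of these data known.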

Additional observations from a re-analysis of the deposited data

Results flagged for a closer look

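For 3 genes the KO effect in Teff differed from that in Treg by limma's test of the difference, adjusted over all tested genes. Art2a differed by -2.34 on the log2 scale (Teff effect minus Treg effect, adjusted p = 0.00835), Trav7d-6 by -6.005 (adjusted p = 0.0203) and Zswim9 by -3.79 (adjusted p = 0.00835). Art2a fell more in Teff, Trav7d-6 was lower in KO Teff and higher in KO Treg, and Zswim9 was higher in KO Treg and was not called in Teff. Trav7d-6 is listed at 0 in both WT Treg libraries, so the size of its difference depends on the pseudocount.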

How the results depend on the processing

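The number of called genes (958) was 948 with library totals, 937 with TMM factors, 825 with quantile normalization, 948 and 987 with pseudocounts of 0.5 and 5, 873 with no filter and 881 with a stricter filter. Without trend and robust shrinkage it was 646, of which 156 were higher. Fitted on the 4 Teff libraries alone, which leaves fewer degrees of freedom for the spread, it was 210, with 60 higher and 150 lower. With 1 library left out it ranged from 363 to 677, with 89 to 180 genes higher and 253 to 511 lower; a group left with 1 library was then assumed to vary like the others. The lowest number came without Teff WT replicate 2 for all calls and lower calls and without Teff KO replicate 2 for higher calls. Genes whose effect differed between Teff and Treg numbered 5 with library totals, 5 with the stricter filter and 7 without trend and robust shrinkage, and 0 to 3 with 1 library left out. The Ern1 difference ranged from -0.43 to -0.30 with 1 library left out and was not called under any of the alternatives.

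The replicate numbers of the labels did not pair the libraries: deviations of same-numbered WT and KO Teff libraries correlated at r = -0.04, so with a replicate block the count of 722 calls (191 higher, 531 lower, 2 for the difference between sorts) is given as a check only. Of 142 called genes given with values, 66 lost the call with the 4 Teff libraries alone, 30 without trend and robust shrinkage and 14 with the replicate block. Differences that were not called changed sign with 1 library left out for C1qa (from -1.99 to 0.11), Calr (-0.014 to 0.041, and -0.016 with quantile normalization), Cd3e (-0.055 to 0.053, and 0.018 with TMM factors), Creld2 (-0.012 to 0.037), Klf2 (-0.0080 to 0.24) and Zswim9 (-0.40 to 0.031). The cause of these shifts was not tested. With 2 libraries a group and no read depth, small differences of weakly expressed genes are not resolved.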
